A study of Mus musculus with 12 samples.

Results

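Genes of the MHC class II antigen presentation machinery were followed in RNA sequencing of mouse hepatic stellate cells, which store vitamin A in the liver and become matrix-producing myofibroblasts in culture. The genes were taken by symbol and numbered 7. The class II chain genes H2-Aa, H2-Ab1 and H2-Eb1, the invariant chain gene Cd74 and the H2-DM genes H2-DMa and H2-DMb1 were listed in the table of 12081 genes. Ciita, the gene of the class II transactivator, had no row in that table and was not analysed here, so the results rest on 6 genes. All cells came from Hk2 fl/fl mice, in which Cre recombinase can delete Hk2 (hexokinase 2, a glycolytic enzyme). LAC cells received an adenovirus with Cre fused to eGFP (Ad-Cre) and then 10 mM lactate for 24 h, KO cells received Ad-Cre alone, and ACT cells received an eGFP adenovirus (Ad-GFP). LAC, KO and ACT cells were cultured for 6 days, whereas QS cells were freshly isolated, untreated and taken as quiescent. Each group had 3 libraries, and nothing in the labels ties a library to its own animal or culture, so p-values reflect how far these libraries vary, which may be technical variation alone.

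A class II molecule is a pair of an alpha and a beta chain that holds a peptide for inspection by CD4+ T cells. The invariant chain fills the groove of new molecules and leads them to endosomes, where cathepsins trim it to a short fragment and H2-DM exchanges that fragment for peptides. Transcription depends on the class II transactivator, which is recruited by RFX, CREB and NF-Y proteins bound to the X and Y boxes of the promoters, and which interferon-gamma induces in many cell types. In the liver, class II is known best from Kupffer cells, dendritic cells and B cells, with lower levels on sinusoidal endothelial cells, and stellate cells have been described as able to present antigen.

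H2-DMa (17:34119541-34139101, plus strand), H2-DMb1 (17:34153072-34160230, plus), H2-Ab1 (17:34257689-34269419, plus), H2-Aa (17:34282744-34287823, minus) and H2-Eb1 (17:34305867-34316674, plus) are neighbours on chromosome 17 in mm10 (GENCODE M21). RefSeq promoters (GRCm38.p6) were at hand for 4 of the 7 genes. They are shown for H2-Aa and H2-Eb1, the 2 chain genes with an entry, because both were above 100 CPM in QS cells, while among the cultured groups H2-Aa differed and H2-Eb1 was not called. Each sequence is the 130 bases before the RefSeq start, read 5′ to 3′ on the strand of the gene. H2-Aa is chr17:34287824-34287953 on the minus strand, and H2-Eb1 is chr17:34305737-34305866 on the plus strand. The first capitals mark an X box motif (CTNGNAAC) and the second the Y box (ATTGG, the inverted CCAAT box).
H2-Aa: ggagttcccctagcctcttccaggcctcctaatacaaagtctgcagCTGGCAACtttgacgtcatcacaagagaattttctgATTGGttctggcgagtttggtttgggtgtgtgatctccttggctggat
H2-Eb1: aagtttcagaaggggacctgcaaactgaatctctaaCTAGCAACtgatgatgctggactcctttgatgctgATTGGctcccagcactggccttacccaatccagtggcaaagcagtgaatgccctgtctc
In H2-Aa the X box motif started at position -84 and the Y box at -48, counted from the RefSeq start. In H2-Eb1 they started at -94 and -59. H2-DMb1 held the same pair at -97 and -61, inside bases that GENCODE assigns to its first exon. The H2-DMb1 and H2-Eb1 windows shared the run AACTGATGATGCT, which covers the end of the X box motif and the bases after it. Neither of the RefSeq starts of H2-DMa had a pair. Among 32851 RefSeq promoters, searched on both strands over 250 bases, ATTGG occurred in 33.8%, CTNGNAAC in 10.9%, and CTNGNAAC starting 25 to 50 bases before ATTGG in 0.262%. The X box motif CTNGNAAC was chosen after the sequences had been seen, so the 0.262% is the share of a motif picked on these promoters. A different X box motif, CCNNGNNAC, is more common and overlaps it in H2-DMb1. With CCNNGNNAC 41.1% of promoters held the motif and 1.19% held the pair, H2-DMb1 among them but neither H2-Aa nor H2-Eb1. These are matches of letters, and binding was not measured.

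The deposited values are read counts scaled to library size (CPM). Depth estimated from the value of a single read was 8.67 to 11.05 M (megareads) in LAC, 5.85 to 11.64 in KO, 11.41 to 14.00 in ACT and 4.35 to 10.14 in QS libraries, and 3 reads corresponded to between 0.212 and 0.720 CPM. Hk2, the targeted gene, averaged 19.3 ± 0.575 CPM in LAC, 12.1 ± 1.48 in KO, 181 ± 0.828 in ACT and 71.2 ± 3.88 in QS cells (SD, n = 3 each), so it was lower in both Ad-Cre groups than in ACT cells. Markers of macrophages and endothelial cells were present in every group. The summed level of the 15 listed of 16 macrophage markers ran from 4326 to 4365 CPM in LAC, 549.7 to 568 in KO, 16685 to 17059 in ACT and 5942 to 6084 in QS libraries. In KO cells most of that sum was Mrc1, at a mean of 387 CPM, the 1 macrophage marker that was higher in KO than in ACT cells. Lyz2 followed at 70.4 CPM in KO, while Adgre1 (2.84), Itgam (4.48) and Cx3cr1 (0.939) were low there. All 12 endothelial markers were also higher in KO than in ACT cells, and which cells Mrc1 came from was not tested. In ACT cells most of the macrophage sum was Lyz2, at a mean of 9350 CPM. The 12 stellate markers summed to 5193 to 5553 CPM in LAC, 3183 to 3462 in KO, 8951 to 8959 in ACT and 4690 to 4809 in QS libraries. Most of the ACT sum was Col1a1 (5341 CPM) and Acta2 (2656 CPM), and single markers did not follow the sum. In ACT compared with QS cells 4 were higher and 8 lower, and in KO compared with ACT 7 were higher, 4 lower and 1 not called. In LAC compared with KO 5 were higher, 3 lower and 4 not called. The 9 listed of 10 hepatocyte markers summed to 0.675 to 1.06 CPM in LAC, 273 to 297 in KO, 16.7 to 21.7 in ACT and 1857 to 1900.2 in QS libraries. Because the libraries are bulk RNA, fewer cells of a type and less RNA per cell cannot be told apart.

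The chain genes and the invariant chain were abundant in fresh cells and at most 20.5 CPM in any library after 6 days in culture. H2-Aa, the alpha chain of I-A, had 0.276, 0.633 and 0.354 CPM in the LAC libraries, 2.09, 1.58 and 2.14 in KO, 5.38, 3.03 and 4.01 in ACT, and 222, 238 and 245 in QS. No library of one group fell within the range of another. The LAC values rest on about 12 reads over 3 libraries. H2-Ab1, the beta chain of I-A, had 1.30, 1.27 and 1.80 CPM in LAC, 1.53, 1.98 and 2.71 in KO, 3.75, 4.68 and 3.64 in ACT, and 167, 164 and 162 in QS. The LAC and KO libraries overlapped, and both lay below ACT, with QS far above. H2-Eb1, the beta chain of I-E, had 1.86, 2.01 and 1.24 CPM in LAC, 2.52, 1.15 and 2.42 in KO, 1.70, 1.65 and 1.68 in ACT, and 147, 154 and 136 in QS. The 3 cultured groups overlapped in H2-Eb1. Its alpha chain partner is annotated as a pseudogene, H2-Ea-ps, and had no row.

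Cd74, on chromosome 18 (60803848-60812652 in mm10, plus strand) apart from the other genes, had the highest CPM of the 6 in QS cells, and its groups did not overlap. It had 2.76, 1.90 and 1.93 CPM in LAC, 4.30, 5.27 and 4.98 in KO, 18.2, 20.5 and 17.9 in ACT, and 704, 638 and 660 in QS.

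The genes of the peptide editor had another pattern. H2-DMa, its alpha chain, had 4.04, 5.35 and 5.71 CPM in LAC, 2.48, 2.80 and 3.42 in KO, 6.39, 4.36 and 5.88 in ACT, and 6.83, 10.8 and 9.01 in QS. The KO libraries were the lowest and the QS libraries the highest, and LAC overlapped ACT. H2-DMb1, its beta chain, had 5.95, 3.50 and 5.27 CPM in LAC, 1.15, 0.289 and 0.142 in KO, 15.2, 16.9 and 15.1 in ACT, and 8.30, 10.5 and 10.1 in QS. All 4 groups were apart, with ACT the highest. The KO value rests on about 16 reads, 13.7 of them in replicate 1. H2-DMb2 is a near-identical neighbour (17:34143307-34151555) with no row in the table, so reads of both genes may have been counted at H2-DMb1 and its single values are uncertain.

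**Figure D1:**
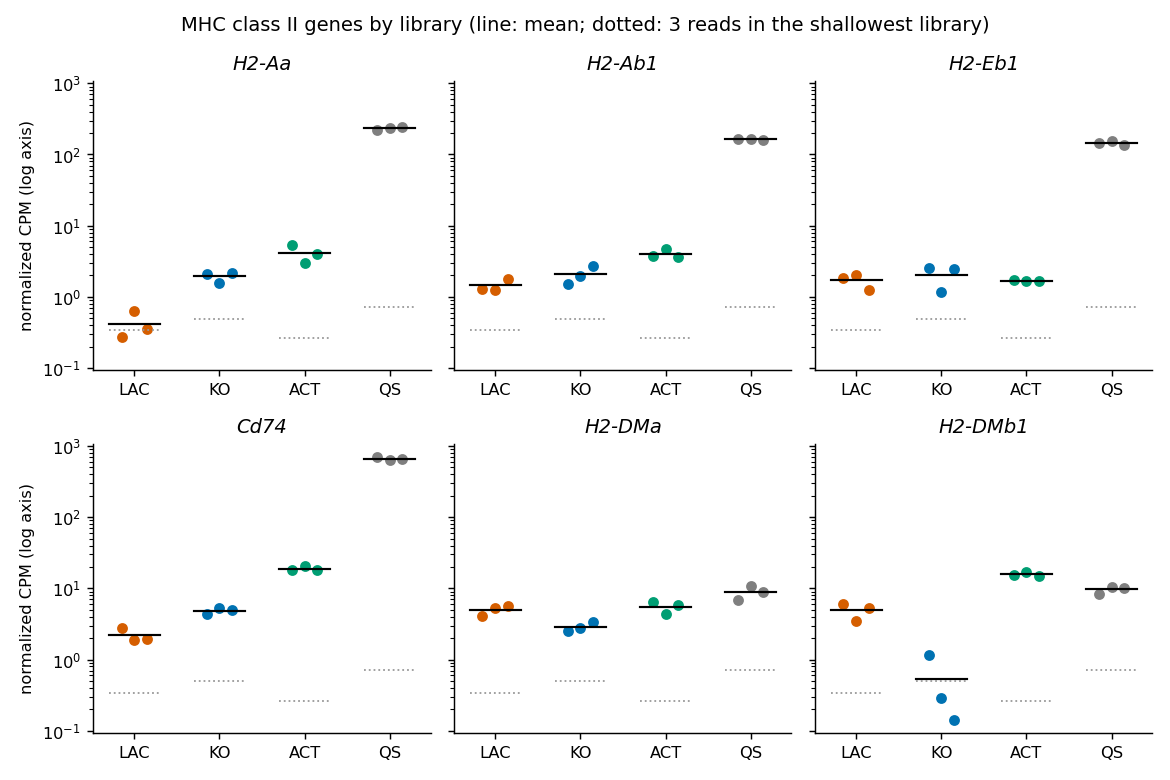
Normalized CPM (log axis) of the 6 listed class II genes, with a point per library, the mean of 3 libraries as a line and 3 reads in the shallowest library of the group as a dotted line. H2-Aa, H2-Ab1, H2-Eb1 and Cd74 sit above 100 CPM in QS only, whereas H2-DMa and H2-DMb1 stay within the range 0.142 to 16.9 CPM in all groups.

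In ACT compared with QS cells, which asks what accompanies activation in culture, 5 of the 6 genes fell and 1 rose. The chain genes and Cd74 fell strongly, H2-DMa fell a little and H2-DMb1 rose a little. Of all genes, 73.5% were called in either direction, 35.5% lower and 38% higher, so a call alone is common and the sizes are given. H2-Aa averaged 4.14 ± 1.2 CPM in ACT and 235 ± 11.7 in QS cells (SD, n = 3 each), which is 56.8-fold lower in ACT and a log2 fold change of -5.55 on the log2(CPM + 1) scale (SE 0.174, limma adjusted p = 1.3e-12). H2-Ab1 averaged 4.02 ± 0.570 CPM in ACT and 164 ± 2.42 in QS cells, which is 40.8-fold lower. H2-Eb1 averaged 1.67 ± 0.0255 CPM in ACT and 146 ± 8.90 in QS cells, which is 87.1-fold lower. Cd74 averaged 18.8 ± 1.42 CPM in ACT and 667 ± 33.3 in QS cells, which is 35.4-fold lower, with a log2 fold change of -5.08 (SE 0.114, limma adjusted p = 3.11e-14). Of all genes, 2.56% had a log2 fold change below -4, and the median over all genes was 0.03.

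H2-DMa averaged 5.54 ± 1.06 CPM in ACT and 8.87 ± 1.97 in QS cells, a log2 fold change of -0.59 (SE 0.198, limma adjusted p = 0.0159). H2-DMb1 averaged 15.7 ± 1.00 CPM in ACT and 9.65 ± 1.2 in QS cells, a log2 fold change of 0.66 (SE 0.233, limma adjusted p = 0.0211). Both calls were fragile. That of H2-DMa was lost without ACT replicate 2 (adjusted p = 0.0789) or QS replicate 2 (0.0709). That of H2-DMb1 was lost without ACT replicate 2 (0.0657) or QS replicate 1 (0.0732), and with a pseudocount of 0.5 (0.0577) or 0.1 (0.187). Virus, culture, time and cell type markers all differ between ACT and QS cells and cannot be told apart. Among the markers, 8 of 8 Kupffer cell genes and 12 of 12 endothelial genes were also lower in ACT, with summed levels of 519.9 to 524 CPM in ACT against 2823 to 2862 CPM in QS for Kupffer cells and 549.6 to 564 CPM in ACT against 13963 to 14264 CPM in QS for endothelial cells. All 9 listed hepatocyte markers were lower in ACT too, with the summed levels given above. Of the 15 listed macrophage markers 11 were higher in ACT, 1 was lower and 3 were not called. The part of these markers in the class II values was not tested.

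Whether H2-DM and the chains changed by different amounts was tested on the log2 ratio of each gene to Cd74 per library, in 30 tests. In ACT compared with QS cells this log2 ratio was higher by 4.49 for H2-DMa and by 5.73 for H2-DMb1. For the chains it differed by -0.70 for H2-Eb1, without overlap, and by -0.47 for H2-Aa and 0.03 for H2-Ab1, with overlapping groups. Under the alternatives, other pseudocounts among them, these chain values ran from -1.22 to 0.32 for H2-Eb1, from -0.69 to 0.10 for H2-Aa and from -0.18 to 0.59 for H2-Ab1, so their sign was not stable. An exact two-sided permutation test of 3 against 3 libraries cannot give a p below 0.1. The smallest p after Benjamini-Hochberg adjustment was 0.12, so none passed, and with this test none could have. The groups did not overlap in 25 of the 30 tests. All 30 tests share Cd74 and the same libraries, and the groups of Cd74 itself did not overlap. How often ratios of other genes to Cd74 separate the groups was not tested, so the count of 25 has no background.

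Deletion of Hk2 was compared in KO and ACT cells. Of the 6 genes 5 were lower in KO cells and H2-Eb1 was not called, against 62.4% of all genes called in either direction, 36% higher and 26.3% lower. Cd74 averaged 4.85 ± 0.502 CPM in KO and 18.8 ± 1.42 in ACT cells, a log2 fold change of -1.76 (SE 0.114, limma adjusted p = 7.2e-09). H2-DMb1 averaged 0.528 ± 0.546 CPM in KO and 15.7 ± 1.00 in ACT cells (SD, n = 3 each), with a log2 fold change of -3.51 (SE 0.233, limma adjusted p = 1.01e-08). The H2-DMb1 level in KO was 3.36% of that in ACT, and 1.37% without KO replicate 1. From about 16 reads in KO against 617 in ACT, the ratio was 0.0409 with a 95% counting interval of 0.0232 to 0.0669, which covers counting error only.

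The other called genes changed less. H2-DMa averaged 2.90 ± 0.478 CPM in KO and 5.54 ± 1.06 in ACT cells, a log2 fold change of -0.74 (limma adjusted p = 0.005). H2-Aa had a log2 fold change of -0.79 (limma adjusted p = 0.00133) and H2-Ab1 one of -0.72 (0.00136), and both were near 2 CPM in KO and 4 CPM in ACT cells. H2-Eb1 differed by 0.15 on the log2 scale, with a 95% interval from -0.26 to 0.56 (limma adjusted p = 0.524). At these low levels the size depends on the pseudocount, and with a pseudocount of 5 the log2 fold changes of H2-Aa and H2-Ab1 were -0.39 and -0.35, still called. An effect of Cre itself and of the mix of cells cannot be told apart from that of Hk2 loss in KO cells. The 15 listed macrophage markers were 14 lower and 1 higher in KO than in ACT cells, with the summed levels given above. The 12 endothelial markers were all higher, with 6086 to 6825 CPM in KO against 549.6 to 564 CPM in ACT libraries. Of the 8 Kupffer cell markers 6 were lower, 1 higher and 1 not called, with a sum of 44.4 to 50.7 CPM in KO against 519.9 to 524 CPM in ACT libraries. The higher one was Clec1b, at a mean of 28.9 CPM in KO and 2.83 in ACT cells, and it made up most of the KO sum. Of 12 B cell markers only Cd22 and Ebf1 were listed, and both were lower. Their sum was 1.94 to 2.92 CPM in KO against 23.0 to 29.2 CPM in ACT libraries. The part of these markers in the class II differences was not tested.

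LAC cells received Ad-Cre and then lactate, and the LAC and KO groups differed in both directions. An effect of lactate cannot be told apart from that of the mix of cells, whose markers differed between these groups. Remaining Hk2 differed too, at 18.7 to 19.7 CPM in LAC and 10.7 to 13.7 in KO libraries, and its part was not tested. H2-DMa and H2-DMb1 rose, H2-Aa and Cd74 fell, and H2-Ab1 and H2-Eb1 were not called, against 41% of all genes called, 20% higher and 21% lower. H2-DMb1 averaged 4.91 ± 1.27 CPM in LAC and 0.528 ± 0.546 in KO cells, a log2 fold change of 1.98 (SE 0.233, limma adjusted p = 1.2e-05). The ratio from 147 reads in LAC against 16 in KO was 7.75, with a 95% counting interval of 4.62 to 13.9. Without KO replicate 1 the KO mean was 0.216 CPM, so the ratio depends on that library. H2-DMa averaged 5.03 ± 0.883 CPM in LAC and 2.90 ± 0.478 in KO cells, a log2 fold change of 0.63 (SE 0.198, limma adjusted p = 0.0215). That call was lost under quantile normalization (adjusted p = 0.0686) and without LAC replicate 2 (0.0664), LAC replicate 3 (0.0805), KO replicate 1 (0.0736) or KO replicate 2 (0.0531).

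Cd74 and H2-Aa were lower in LAC than in KO cells. Cd74 averaged 2.20 ± 0.492 CPM in LAC and 4.85 ± 0.502 in KO cells, a log2 fold change of -0.88 (SE 0.114, limma adjusted p = 2.92e-05). H2-Aa averaged 0.421 ± 0.188 CPM in LAC and 1.93 ± 0.308 in KO cells, a log2 fold change of -1.05 (SE 0.174, limma adjusted p = 0.000283). This is understated at such levels, and with a pseudocount of 0.1 it was -2.01. The ratio from 12 reads in LAC against 49 in KO was 0.207, with a 95% counting interval of 0.1 to 0.394. H2-Ab1 differed by -0.31, with a 95% interval from -0.66 to 0.03 (limma adjusted p = 0.139), and was called under quantile normalization (0.0214) and without KO replicate 1 (0.049). H2-Eb1 differed by -0.14, with an interval from -0.55 to 0.27 (limma adjusted p = 0.586). In the same comparison 14 of the 15 listed macrophage markers were higher and 1 lower in LAC, and all 12 endothelial markers were lower, at 3135 to 3294 CPM in LAC against 6086 to 6825 CPM in KO. Of the 8 Kupffer cell markers 2 were higher, 3 lower and 3 not called in LAC, and of the 2 listed B cell markers 1 was higher and 1 not called. All 9 listed hepatocyte markers were lower in LAC, with Alb at a mean of 0.601 CPM in LAC and 157 in KO cells. The part of these cell type markers in the LAC and KO differences was not tested.

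LAC cells were also set against ACT cells, from which they differ in virus, Hk2 deletion, lactate and cell type markers but not in time in culture. Of the 6 genes 4 were lower in LAC and 2 were not called, against 49.5% of all genes called, 27.8% higher and 21.7% lower. Cd74 had a log2 fold change of -2.64 (limma adjusted p = 1.72e-10), H2-Aa one of -1.84 (7.92e-07), H2-DMb1 one of -1.53 (8.56e-05) and H2-Ab1 one of -1.03 (9.5e-05). H2-DMa differed by -0.11 (95% interval -0.54 to 0.31) and H2-Eb1 by 0.00 (-0.41 to 0.41). In LAC cells H2-DMb1 thus lay above KO and below ACT, while Cd74 and H2-Aa lay below both. The comparisons among the 3 cultured groups share their libraries and are not independent of each other.

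All 6 genes were lower in KO than in QS cells and all 6 in LAC than in QS cells, against 73% and 73.6% of all genes called, with 37.4% higher in each and 35.7% and 36.2% lower. Relative to the QS mean, H2-Aa stood at 0.179% in LAC, 0.823% in KO and 1.76% in ACT cells. Cd74 stood at 0.329% in LAC, 0.727% in KO and 2.82% in ACT cells. H2-Eb1 stood at 1.17% in LAC, 1.39% in KO and 1.15% in ACT cells. H2-DMa stood at 56.7% in LAC, 32.7% in KO and 62.5% in ACT cells, and H2-DMb1 was at 50.8% in LAC, 5.47% in KO and 163% in ACT cells. The H2-DMb1 call in LAC against QS (log2 fold change -0.87, limma adjusted p = 0.00413) was lost with a pseudocount of 0.1 (0.0715).

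**Figure D2:**
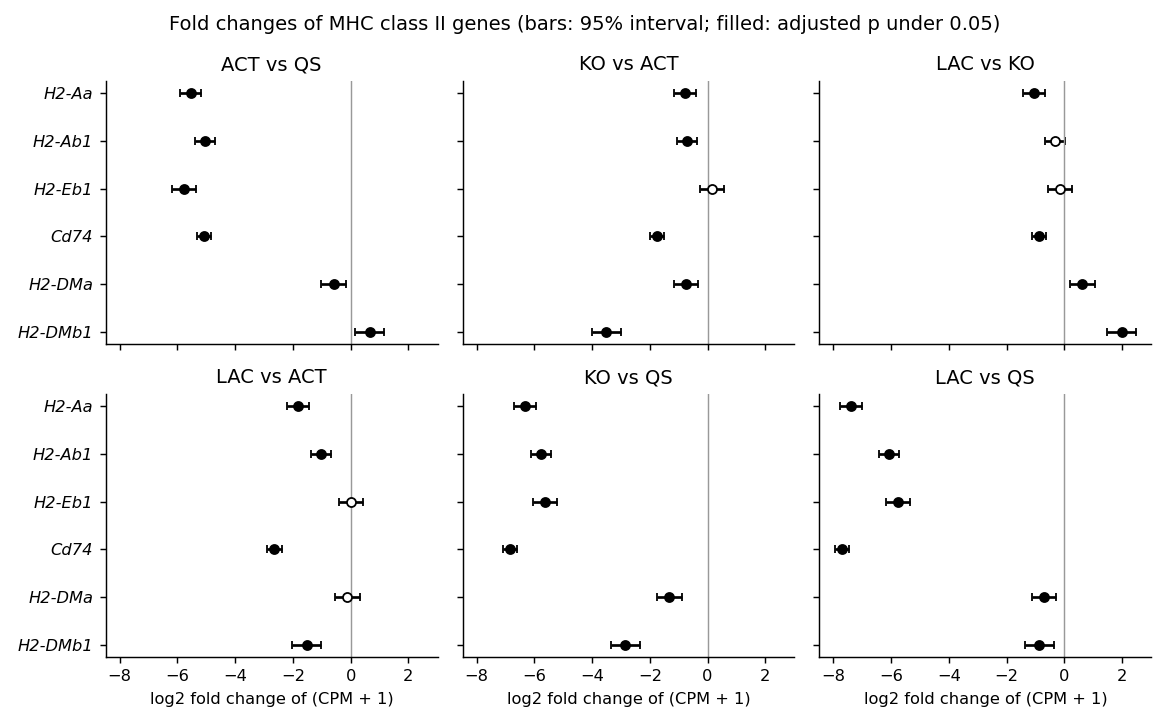
Log2 fold change of (CPM + 1) for the 6 genes in the 6 comparisons, with 95% intervals from limma and filled points where the adjusted p was under 0.05. The chains and Cd74 lie between -5.78 and -5.05 in ACT vs QS, and H2-DMb1 has the lowest value of the 6 in KO vs ACT (-3.51) and the highest in LAC vs KO (1.98).

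Levels of different genes can be compared only per length, here as CPM per 1 kb of the principal GENCODE transcript. In LAC cells H2-DMb1 (3.49 ± 0.902) and H2-DMa (3.04 ± 0.532) led with overlapping ranges, followed by Cd74 (1.56 ± 0.349), H2-Ab1 (1.2 ± 0.249), H2-Eb1 (1.02 ± 0.245) and H2-Aa (0.373 ± 0.167). In those cells Cd74 overlapped H2-Ab1 and H2-Ab1 overlapped H2-Eb1, and H2-Aa lay below them. In KO cells Cd74 led (3.44 ± 0.356), H2-DMa, H2-Aa, H2-Ab1 and H2-Eb1 overlapped between 0.691 and 2.23, and H2-DMb1 had 0.376 ± 0.389, with a range that reached that of H2-Eb1. In ACT cells Cd74 (13.4 ± 1.00) and H2-DMb1 (11.2 ± 0.713) led, H2-Aa, H2-DMa and H2-Ab1 overlapped between 2.63 and 4.77, and H2-Eb1 was lowest (1.00 ± 0.0153). In QS cells the order was Cd74 (473 ± 23.6), H2-Aa (208 ± 10.4), H2-Ab1 (136 ± 2.00), H2-Eb1 (87.3 ± 5.33), H2-DMb1 (6.88 ± 0.852) and H2-DMa (5.35 ± 1.19), and the ranges of the last pair overlapped. The H2-DM genes were thus the highest of the 6 per length in LAC cells and the lowest in QS cells.

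**Figure D3:**
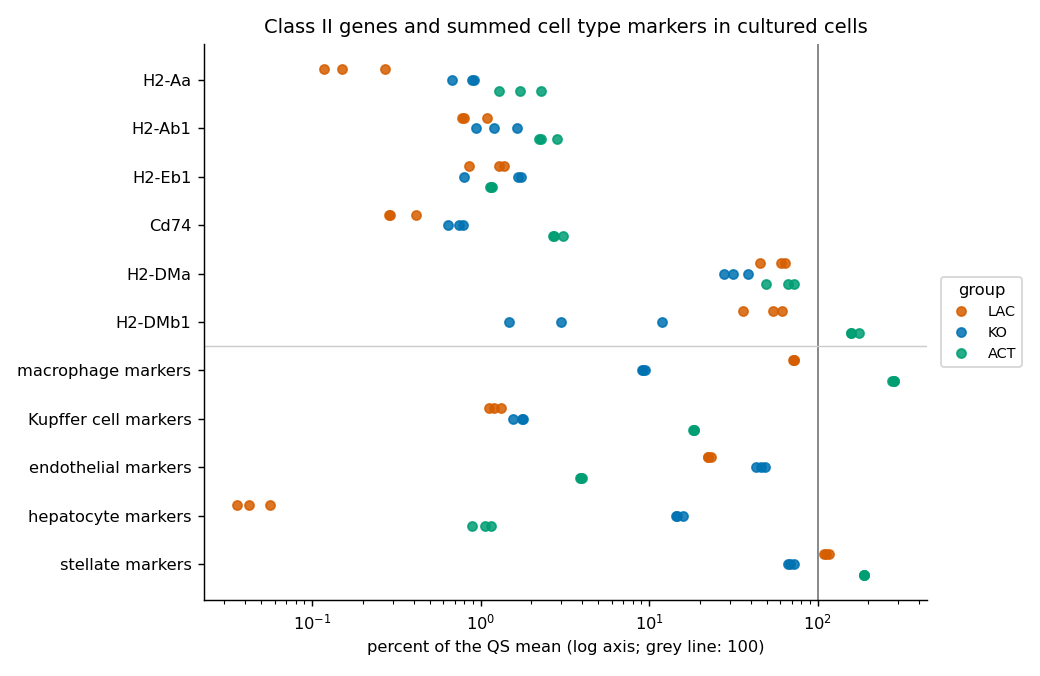
Level of each library as a percentage of the QS mean (log axis) for the 6 class II genes and for summed markers of 5 cell types, with a point per library of LAC, KO and ACT. The chains and Cd74 lie below 4% in all 3 groups. The summed Kupffer cell markers average 1.22% in LAC, 1.70% in KO and 18.4% in ACT. In KO most of that sum is Clec1b (28.9 CPM), which was higher in KO than in ACT (2.83 CPM). Single Kupffer cell genes differed in ACT vs QS, from Clec4f (log2 fold change -6.26) to Folr2 (-0.73). H2-DMb1 and the summed macrophage markers are both highest in ACT (163% and 281%) and lowest in KO (5.47% and 9.25%). In KO most of the macrophage sum is Mrc1 (387 CPM), and in ACT most of it is Lyz2 (9350 CPM). Of the 15 listed macrophage markers 11 were higher, 1 lower and 3 not called in ACT vs QS.

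The other genes that the pathway needs were read from lists. Of all genes, 73.5% were called in ACT vs QS (38% higher, 35.5% lower) and 62.4% in KO vs ACT (36% higher, 26.3% lower). In LAC vs KO 41% were called, 20% higher and 21% lower. The list counts here and in the next paragraphs are to be read beside these shares. None of the 5 accessory chains (H2-DMb2, H2-Oa, H2-Ob, H2-Eb2 and H2-Ea-ps) was listed, so they were not analysed here. Of 11 transcription factors that act on class II genes or on Ciita, 10 were listed, and in ACT compared with QS cells 2 were higher, 5 lower and 3 not called (median log2 fold change -0.64, against 0.03 for all genes). Irf1, an interferon-induced activator of Ciita, averaged 31.7 ± 2.00 CPM in ACT and 161 ± 7.68 in QS cells (log2 fold change -2.31). Irf8 (-0.82), Creb1 (-0.68), Rfxank (-0.98) and Nfyb (-0.60) were lower too, whereas Nfyc (0.30) was higher. Nfya, Rfxap and Rfx5 were not called, and Rfx5 values were uneven, at 0 to 7.58 CPM in ACT and 4.03 to 9.55 in QS libraries. Spi1, which encodes a transcription factor of myeloid and B cells, was higher in ACT, at 80.3 ± 2.01 CPM in ACT against 40.0 ± 4.35 in QS cells (0.99).

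In KO compared with ACT cells 3 of the 10 factors were higher, 3 lower and 4 not called (median -0.08). That is near the 62.4% of all genes called. Spi1 averaged 0.979 ± 0.785 CPM in KO and 80.3 ± 2.01 in ACT cells, a log2 fold change of -5.43. Nfya (-0.67) and Creb1 (-0.24) were lower as well, and Rfxank (0.70), Irf1 (0.33) and Nfyb (0.30) were higher. In LAC compared with KO cells Spi1 (3.41) was higher, Irf1 (-0.41) and Irf8 (-0.40) were lower, and the other 7 were not called. Spi1 averaged 19.1 ± 0.888 CPM in LAC cells. The RFX and NF-Y subunits thus had no common direction in these comparisons.

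Genes that interferon-gamma is known to induce were lower in ACT than in QS cells, all 19 that were listed of 20 (median -3.88), and mixed in the comparisons among the cultured groups. Iigp1, an immunity-related GTPase, averaged 2.39 ± 0.279 CPM in ACT and 663 ± 15.2 in QS cells (log2 fold change -7.62). Cxcl10, a chemokine for activated T cells, averaged 1.73 ± 0.0913 CPM in ACT and 381 ± 2.46 in QS cells (-7.13). B2m, the light chain of class I molecules, averaged 730 ± 27.7 CPM in ACT and 2600.5 ± 66.4 in QS cells (-1.83), and Nlrc5, the class I counterpart of the class II transactivator, had a log2 fold change of -3.52. In KO compared with ACT cells 8 of the 19 were higher, 3 lower and 8 not called (median 0.33), with Iigp1 (2.75), Cxcl10 (1.71) and Tap1 (0.95) higher. In LAC compared with KO cells 2 were higher, 6 lower and 11 not called (median -0.09), with Cxcl10 (-1.46) and Iigp1 (-1.26) lower. Irf1 stands in this list and among the transcription factors.

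Of 7 genes of the interferon-gamma receptor and its feedback 6 were listed, and in ACT compared with QS cells 1 was higher, 4 were lower and 1 was not called. Ifngr1, a receptor chain, averaged 112 ± 2.95 CPM in ACT and 71.0 ± 5.02 in QS cells (log2 fold change 0.65), while Jak1 (-1.71), Jak2 (-1.92) and the feedback inhibitor Socs3 (-2.77) were lower. In KO compared with ACT cells 3 were higher, 1 lower and 2 not called, with Socs3 (2.14) and Jak1 (1.45) higher and Ifngr1 (-0.58) lower. In LAC compared with KO cells 2 were higher, 2 lower and 2 not called, with Ifngr1 (0.57) higher and Socs3 (-1.04) and Jak1 (-0.59) lower.

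The proteases that trim the invariant chain and antigens were lower in KO than in ACT cells and higher in LAC than in KO cells. Of 10 such genes 8 were listed, and 5 were higher, 2 lower and 1 not called in ACT compared with QS cells (median 0.85). All 8 were lower in KO than in ACT cells (median -1.93) and all 8 higher in LAC than in KO cells (median 0.82). Of all genes, 26.3% were called lower in KO vs ACT and 20% higher in LAC vs KO. Ctss, the cathepsin that performs the late cuts of the invariant chain, averaged 738 ± 21 CPM in LAC, 24.7 ± 1.96 in KO, 2511 ± 36.2 in ACT and 549 ± 22.9 in QS cells. Its log2 fold changes were 2.19 in ACT vs QS, -6.62 in KO vs ACT and 4.85 in LAC vs KO. Ctsd, an aspartic protease of lysosomes, averaged 3436 ± 63.0 CPM in LAC, 1290.4 ± 30.3 in KO, 10386 ± 137 in ACT and 1423 ± 42.2 in QS cells. Lgmn, the asparagine endopeptidase, averaged 413 ± 7.24 CPM in LAC, 253 ± 7.06 in KO, 857 ± 10.2 in ACT and 935 ± 17.6 in QS cells. Ctsh averaged 45.3 ± 7.24 CPM in LAC, 11.4 ± 2.25 in KO, 116 ± 9.43 in ACT and 115 ± 7.44 in QS cells and was not called in ACT vs QS. Macrophages are rich in these proteases. The summed macrophage markers, given above, had the same directions in both comparisons, and their part was not tested.

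Genes that remove class II from the surface or serve its compartment changed moderately except for 1. Of 6 genes 5 were listed, with 2 higher and 3 lower in ACT than in QS cells, 4 lower and 1 not called in KO compared with ACT, and 3 higher, 1 lower and 1 not called in LAC compared with KO. Marchf1, the ligase that ubiquitinates class II, averaged 12.2 ± 1.25 CPM in LAC, 0.583 ± 0.506 in KO, 40.0 ± 1.77 in ACT and 61.6 ± 4.27 in QS cells. Its log2 fold changes were -0.61 in ACT vs QS, -4.75 in KO vs ACT and 3.11 in LAC vs KO. The related Marchf8 did not follow it, with 57.4 ± 2.14 CPM in LAC, 67.8 ± 3.88 in KO, 67.7 ± 4.14 in ACT and 85.5 ± 3.79 in QS cells.

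Costimulatory genes, whose products accompany class II in T cell activation, were mixed. Of 9 genes 7 were listed, with 1 higher, 5 lower and 1 not called in ACT compared with QS, 3 higher and 4 lower in KO compared with ACT, and 3 higher, 1 lower and 3 not called in LAC compared with KO. Cd274, the inhibitory ligand PD-L1, averaged 14.4 ± 0.860 CPM in LAC, 4.21 ± 0.649 in KO, 33.2 ± 1.25 in ACT and 328 ± 2.55 in QS cells. Cd86, a ligand of CD28, averaged 1.67 ± 0.925 CPM in LAC, 0.255 ± 0.211 in KO, 7.77 ± 1.00 in ACT and 59.5 ± 1.99 in QS cells. Icam1, an adhesion molecule, averaged 117 ± 5.10 CPM in LAC, 132 ± 8.04 in KO, 36.0 ± 1.86 in ACT and 102 ± 2.87 in QS cells, so it was higher in KO than in ACT (log2 fold change 1.84) where Cd86 was lower (-2.81).

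**Figure D4:**
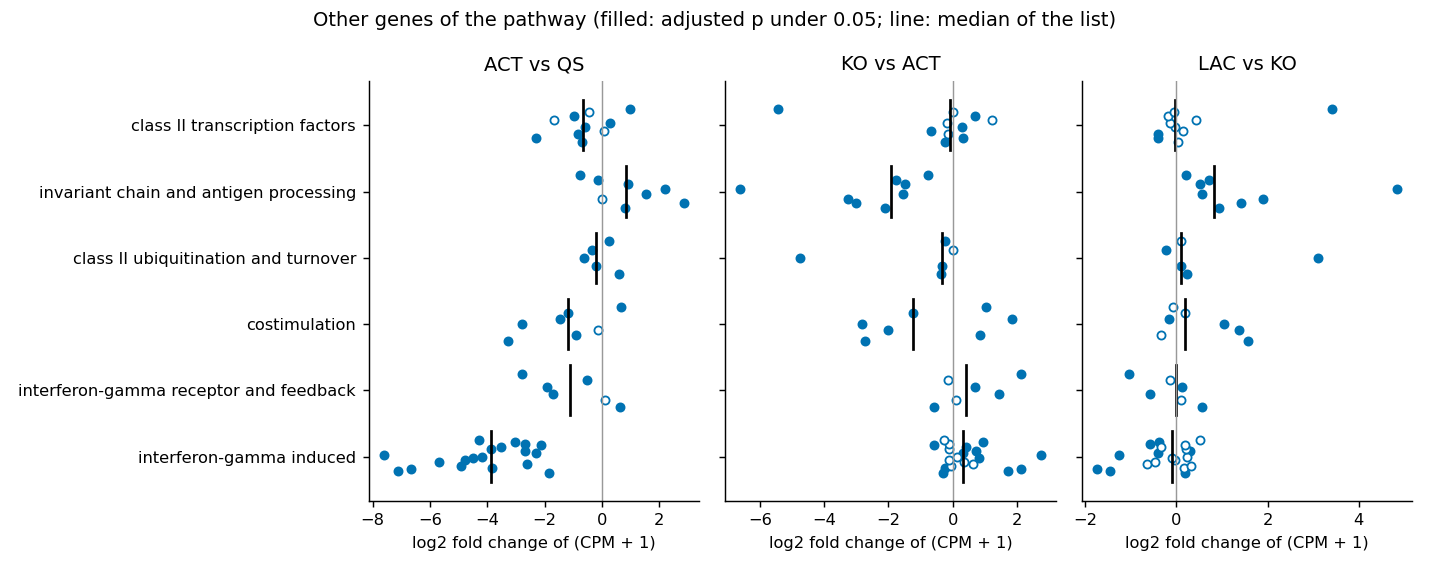
Log2 fold change of (CPM + 1) of each listed gene in 6 pathway lists, for ACT vs QS, KO vs ACT and LAC vs KO, with filled points where the limma adjusted p was under 0.05 and a line at the median of the list. The interferon-gamma induced genes are all below 0 in ACT vs QS (median -3.88), and the antigen processing genes are all below 0 in KO vs ACT (median -1.93) and all above 0 in LAC vs KO (median 0.82).

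Likeness of profiles was measured as the root mean square difference over the 12 libraries of log2(CPM + 1), each gene centred on its own mean. Within the 6 genes H2-Aa and Cd74 were the closest pair (0.451), followed by H2-Ab1 and H2-Eb1 (0.476), whereas H2-DMa and H2-DMb1 were 1.04 apart and each stood 2.11 to 2.64 from the chains and Cd74. Among 11417 other genes, those nearest to the mean profile of H2-Aa, H2-Ab1, H2-Eb1 and Cd74 were Timd4 (0.228), Zbp1 (0.399), Cxcl13 (0.419), Clec4f (0.439), Mx1 (0.461), Cfb (0.478), Ifi205 (0.495), Irf7 (0.507), Spic (0.533) and Acod1 (0.534). Timd4 and Clec4f are on the Kupffer cell marker list, and the other genes named are not. Timd4 was listed at 0 in the 3 LAC libraries and averaged 0.179 ± 0.156 CPM in KO, 1.19 ± 0.422 in ACT and 114 ± 5.01 in QS cells. Clec4f averaged 0.784 ± 0.0887 CPM in LAC, 3.62 ± 0.490 in KO, 3.72 ± 0.633 in ACT and 360 ± 9.77 in QS cells. Irf7, which is not on that list, averaged 9.19 CPM in LAC, 6.23 in KO, 11.2 in ACT and 530 in QS cells. Other genes on the list had another profile, with Marco at 194 CPM in ACT and 931 in QS cells. Folr2 averaged 43.3 CPM in ACT and 72.5 in QS cells. Nearest to H2-DMa were Hpse (0.164), Map3k2 (0.166), Zkscan8 (0.202), Xrn1 (0.207) and Mindy2 (0.214). Nearest to H2-DMb1 were Sirpa (0.238), B4galt6 (0.285), Slc16a7 (0.287), Ebi3 (0.288) and Ptafr (0.295), and Sirpa averaged 278 CPM in LAC, 70.6 in KO, 851 in ACT and 496 in QS cells.

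Markers of the classical class II cells other than macrophages were thin in the table. Of 15 dendritic cell markers 6 were listed, and they did not move together. Clec9a, a receptor of a dendritic cell subset, averaged 2.07 ± 0.795 CPM in LAC, 5.46 ± 0.589 in KO, 0.342 ± 0.0574 in ACT and 20.2 ± 5.48 in QS cells. Itgax, an integrin of dendritic cells and some macrophages, averaged 90.9 ± 3.85 CPM in LAC, 2.24 ± 0.0517 in KO, 256 ± 3.25 in ACT and 3.31 ± 1.12 in QS cells. Of 12 B cell markers 2 were listed, Cd22 and Ebf1, with a summed level of 10.0 to 14.8 CPM in LAC, 1.94 to 2.92 in KO, 23.0 to 29.2 in ACT and 27.3 to 38.2 in QS libraries. In ACT compared with QS cells Cd22 was lower (log2 fold change -0.65) and Ebf1 higher (1.44). Of 12 T and NK cell markers 1 was listed, Cd3d. The 8 Kupffer cell markers summed to 31.9 to 37.5 CPM in LAC and 44.4 to 50.7 in KO libraries. Clec1b was the largest of them in both groups, at a mean of 14.0 CPM in LAC and 28.9 in KO cells.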

How the data were processed

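Per the labels' protocols, cells were isolated on a density gradient and a stranded mRNA kit gave 12 libraries, 3 for each of 4 groups. The tools named are kallisto 0.44.0, edgeR 3.8, FastQC 0.11.8 and cutadapt 1.18, and the build is mm10, both from the submitters' processing notes, which state no roles. The authors deposited a normalized CPM signal for 12081 genes, recorded as a signal because column totals run from 959233 to 1047042. All genes have at least 1 CPM in at least 3 libraries. Only 19.7% to 25.8% of positive values were whole reads (tolerance 0.01), so no count test was run, and reads are estimates from the value of a single read, seen in low values shared by at least 5 genes. Mouse strain, age and sex are not given in the sources used here.

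Group and replicate were read from the sample titles. limma 3.58.1 (R 4.3.3) was fitted to log2(CPM + 1) of all 12 libraries with 4 group means (8 residual degrees of freedom, empirical Bayes with an intensity trend), Benjamini-Hochberg adjusted over all 12081 genes within each of 6 comparisons and called under 0.05. Log2 fold changes with a pseudocount understate those of low genes. The fit was tested on simulated data in which only genes of at least 5 CPM were changed, so recovery of changes in lower genes was not tested. Ratios to Cd74 used exact permutation tests. Counting intervals are exact (95%) and cover counting error only. Same-numbered libraries did not deviate together: 0 of 18 correlations exceeded 0.1 (-0.04 to 0.09), so no pairing was used. Genes named were the 7 members, all class II transcription factors, up to 4 called genes per list with the largest change and at least 5 CPM, and the nearest profiles (10 for the chains and Cd74, 5 for each H2-DM gene). Further pathway genes and cell type markers were named for contrast after their values were seen. Members, lists and comparisons were chosen with earlier results of these data known. A result that the lists first held is not reported here, and their counts leave it out. Alternatives were pseudocounts of 0.1, 0.5 and 5, a 5 CPM filter, other scalings, moderation and thresholds, weights, fits of 2 groups, the replicate block, and leaving out each library.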

Additional observations from a re-analysis of the deposited data

How the results depend on the processing

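Over the single genes and comparisons, 688 results under alternatives kept their direction and side of the threshold, 24 lost a call, 2 gained a call and 6 changed sign, all 6 in LAC vs ACT differences near 0 that were never called. For H2-Eb1 there, the reported 0.00 became -0.0036 with a pseudocount of 0.1 and -0.0958 under quantile normalization, and ran from -0.0784 to 0.134 when each library was left out. For H2-DMa it ran from -0.251 to 0.0109. A threshold of at least 2-fold left 3765 genes in ACT vs QS (8881 without it), 2289 in KO vs ACT (7533), 882 in LAC vs KO (4957), 1524 in LAC vs ACT (5980), 3338 in KO vs QS (8825) and 3627 in LAC vs QS (8890), and it left 2 of 5 called class II genes in KO vs ACT and 2 of 4 in LAC vs KO. Leaving out each library gave 8421 to 8711 genes called in ACT vs QS, 6929 to 7258 in KO vs ACT and 4204 to 4738 in LAC vs KO, with 4 to 6, 5 and 3 to 4 class II genes called. With the replicate number as a block, 8893 genes were called in ACT vs QS, 7542 in KO vs ACT and 4935 in LAC vs KO, and no call of a class II gene changed. Scaling to equal totals moved the median of all genes in KO vs QS by 0.11 on the log2 scale, small beside the class II differences there. Of 270 ratios to Cd74 under alternatives, 35 moved by more than the replicate spread and none could pass the exact test. Depth limits H2-Aa in LAC cells and H2-DMb1 in KO cells, where some libraries held about 3 reads or fewer. Leaving out libraries also gave 5380 to 5457 genes in LAC vs ACT, 8423 to 8588 in KO vs QS and 8474 to 8706 in LAC vs QS.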
